A study of Raphanus sativus with 8 samples.

Results

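The 72 unigenes described here were matched to genes for the small subunit of Rubisco, Rubisco activase, the enzymes of the Calvin cycle and their CP12 regulators in shoots of radish (Raphanus sativus). Membership was set by annotation: a unigene (a radish transcript model, named by a TBIU number) was a member when the Arabidopsis gene it was matched to was 1 of 20 listed loci. Of 78395 unigenes, 60161 had such a match, to 17197 Arabidopsis loci, and 72 fell on 18 of the 20 loci. No unigene was matched to RBCS1A or RBCS2B, so the small subunit was seen through RBCS1B and RBCS3B. Gene names are those of the Arabidopsis match, and the roles given are known from Arabidopsis and other model plants.

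RNA sequencing counts came from 8 libraries of whole shoots, 2 per group, each from 3 pooled plants, and all were harvested at the same time of day. NH-JS2_GA and NH-JS2 are plants of the early-bolting inbred line NH-JS2, and NH-JS1_GA and NH-JS1 are plants of the late-bolting inbred line NH-JS1. The _GA groups were sprayed with gibberellin (GA), a hormone that promotes stem elongation and bolting, and are labelled as bolting in both lines. The untreated groups are labelled as vegetative. All 4 groups had the same cold treatment and recovery before the spray and were sampled 6 days after it. The comparisons address how GA affects gene expression in each line and how the lines differ with and without GA. Each line is 1 genotype, and GA treatment and the labelled stage cannot be told apart. In the bolting test of the study, NH-JS1 plants given the same cold treatment and spray had not bolted at a later day than this sampling. The bolting label of NH-JS1_GA is therefore doubtful. The text of the study does not say whether NH-JS2_GA plants had bolted by 6 days.

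Rubisco fixes CO2 onto ribulose bisphosphate in the chloroplast stroma. The product is reduced to triose phosphate, and the remaining enzymes rebuild the acceptor from triose phosphate, with phosphoribulokinase at the last step. Rubisco activase frees Rubisco of inhibitory sugar phosphates, and CP12 is a small protein that binds glyceraldehyde phosphate dehydrogenase and phosphoribulokinase into an inactive complex in the dark. The transcripts of these nuclear genes are abundant in green shoots, and many of them follow light and the time of day.

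The libraries held 23757588 to 34165272 counts. As a check of the tissue, 12 of 17 light-harvesting antenna loci had unigenes, and these summed to 45323 CPM (counts scaled to a common library size) or more in every library. Of 8 root marker loci, 2 had unigenes, with a sum of 0.486 to 0.849 CPM in NH-JS2 plants and 12.9 to 17.4 CPM in NH-JS1 plants. Nearly all of it came from COW1, since the other (AT3G29430) was at 0.0335 to 0.0729 CPM and was too low to test. NH-JS2 replicate 2 stood apart: it had the lowest total, and its TMM factor (which sets the bulk of unigenes level between libraries) was 0.886, against 0.983 to 1.043 in the other 7. It also stood apart in nearly all members, so the counts of calls are also given without it.

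Members took 3.74% and 3.95% in NH-JS2_GA against 3.98% and 6.12% in NH-JS2, with 3.36% and 3.83% in NH-JS1_GA against 4.09% and 3.95% in NH-JS1 of the counts of a library. NH-JS2 replicate 2 had the highest share, and the other 7 libraries lay between 3.36% and 4.09%. Rubisco small subunit unigenes took 0.878% and 0.969% in NH-JS2_GA against 1.02% and 1.56% in NH-JS2, with 0.724% and 0.842% in NH-JS1_GA against 1.02% and 0.893% in NH-JS1. Within each line both GA libraries lay below both untreated libraries. CP12 unigenes took 0.0706% and 0.0628% in NH-JS2_GA against 0.0837% and 0.0791% in NH-JS2, with 0.0487% and 0.0505% in NH-JS1_GA against 0.0628% and 0.0670% in NH-JS1. For CP12 both NH-JS2 libraries lay close together and above the other 6. Counting error on these shares was at most 0.00964 percentage points on either side (95% Wilson interval) for all members together, and the CP12 share of NH-JS2 replicate 2 had an interval of 0.0780% to 0.0803%. In whole-shoot RNA, fewer photosynthetic cells and less RNA of these genes per cell cannot be told apart.

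**Figure D1:**
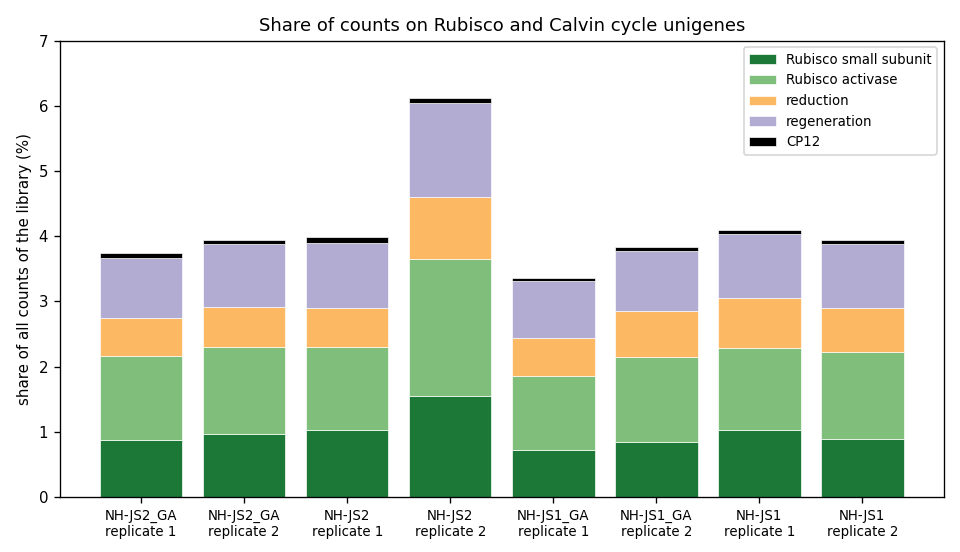
Share of the counts of each library (%) that fell on the 72 member unigenes, divided by role, in the 8 libraries. NH-JS2 replicate 2 reaches 6.12%, and the other libraries lie between 3.36% and 4.09%.

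NH-JS2 replicate 2 was the highest of the 8 libraries in 18 of 18 loci, as it was in 19.9% of all loci tested, and in 63 of 72 unigenes, against 18% of all unigenes. In 15 loci it exceeded NH-JS2 replicate 1 by more than 0.5 on the log2 scale, against 9.72% of all loci. The median log2 ratio of replicate 2 to replicate 1 over the 18 loci was 0.77, with a range of 0.05 for CP12-2 to 1.06 for RPI. In each of the other groups 0 of 18 loci had a log2 ratio above 0.5, against 3.14% of all loci in NH-JS2_GA, 5.39% in NH-JS1_GA and 2.88% in NH-JS1, and the medians were 0.11 in NH-JS2_GA, 0.22 in NH-JS1_GA and -0.14 in NH-JS1. Lists of neighbouring genes were unequal in this respect. The summed CPM of replicate 2 was 1.67 times that of replicate 1 for Rubisco assembly and folding, 1.38 times for photorespiration, 1.27 times for the antenna, 1.152 times for the thioredoxin system, and 1.02 times for other plastid or cytosolic forms of Calvin cycle enzymes. What set this library apart was not tested.

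**Figure D2:**
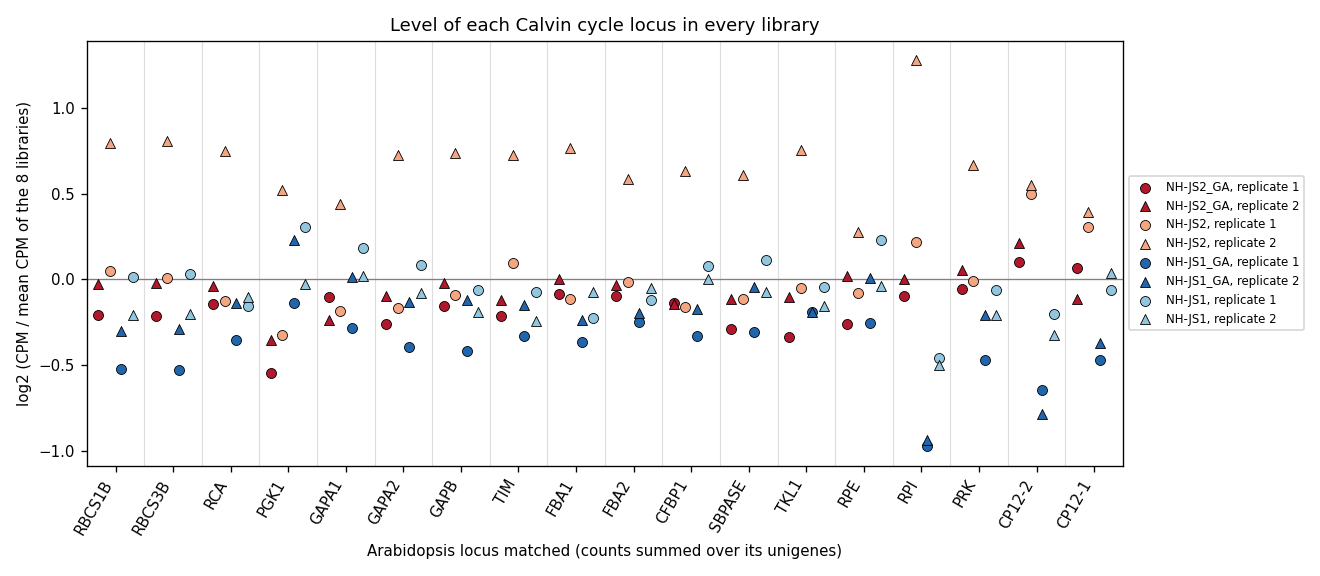
Level of the 18 loci in each of the 8 libraries, as log2 of its CPM over the mean of the 8 libraries (y axis), with groups by colour, circles for replicate 1 and triangles for replicate 2. NH-JS2 replicate 2 is the highest library in 18 of 18 loci, and in CP12-2 and CP12-1 both NH-JS2 libraries lie together.

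Rubisco and its activase came first in the cycle. RBCS1B (AT5G38430), a small subunit gene, had 5614 and 6365 CPM in NH-JS2_GA against 6705 and 11277 CPM in NH-JS2, with 4506 and 5261 CPM in NH-JS1_GA against 6537 and 5617 CPM in NH-JS1. Its most abundant unigene, TBIU056051, had 85274 and 106472 counts in NH-JS2_GA against 102265 and 126365 counts in NH-JS2, with 69700 and 81008 counts in NH-JS1_GA against 119932 and 93986 counts in NH-JS1, as deposited and before scaling. In CPM the NH-JS1_GA libraries were the lowest of the 8. RBCS3B (AT5G38410), the other small subunit gene, had 3485 and 3993 CPM in NH-JS2_GA against 4064 and 7077 CPM in NH-JS2, with 2800.4 and 3315 CPM in NH-JS1_GA against 4131 and 3513 CPM in NH-JS1. Its leading unigene TBIU015304 had 70649 and 89190 counts in NH-JS2_GA against 83236 and 106335 counts in NH-JS2, with 57460 and 67674 counts in NH-JS1_GA against 99714 and 77147 counts in NH-JS1. Here too both NH-JS1_GA libraries were the lowest in CPM and the GA libraries of each line lay below its untreated ones. Small subunit copies are close in sequence, so the division of reads between these loci is uncertain. RCA (AT2G39730), Rubisco activase, had 13290.2 and 14316 CPM in NH-JS2_GA against 13458 and 24688 CPM in NH-JS2, with 11482 and 13351 CPM in NH-JS1_GA against 13197 and 13669.7 CPM in NH-JS1. Apart from NH-JS2 replicate 2 the libraries lay close together, and GA and untreated libraries overlapped in both lines. Its leading unigene TBIU017647, 1 of 10, had 84291 and 100989 counts in NH-JS2_GA against 86647 and 120358 counts in NH-JS2, with 73215 and 86200 counts in NH-JS1_GA against 102557 and 93906 counts in NH-JS1.

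Among the enzymes of reduction, PGK1 (AT3G12780) is the plastid phosphoglycerate kinase. It had 1025 and 1169 CPM in NH-JS2_GA against 1193 and 2149 CPM in NH-JS2, with 1359 and 1752 CPM in NH-JS1_GA against 1853 and 1466 CPM in NH-JS1, and its leading unigene TBIU049881 had 14299 and 17694 counts in NH-JS2_GA against 16481 and 22239 counts in NH-JS2, with 15903 and 20670 counts in NH-JS1_GA against 26629 and 18719 counts in NH-JS1. All 4 libraries of NH-JS1 plants exceeded 3 of the 4 libraries of NH-JS2 plants. GAPA1 (AT3G26650) and GAPA2 (AT1G12900) encode the A subunit of plastid glyceraldehyde phosphate dehydrogenase. GAPA1 had 1248 and 1139 CPM in NH-JS2_GA against 1179.5 and 1819 CPM in NH-JS2, with 1103 and 1353 CPM in NH-JS1_GA against 1520.2 and 1358 CPM in NH-JS1. Its leading unigene TBIU041568 had 18087 and 18684 counts in NH-JS2_GA against 17622 and 20465 counts in NH-JS2, with 15195 and 18764 counts in NH-JS1_GA against 25651 and 20568 counts in NH-JS1. For GAPA1 the GA libraries were below the untreated ones in NH-JS1 plants and overlapped them in NH-JS2 plants. GAPA2 had 2723 and 3042 CPM in NH-JS2_GA against 2902 and 5386 CPM in NH-JS2, with 2475 and 2974 CPM in NH-JS1_GA against 3449.5 and 3087 CPM in NH-JS1, and its leading unigene TBIU039529 had 22733 and 29175 counts in NH-JS2_GA against 25098 and 36258 counts in NH-JS2, with 19968 and 24407 counts in NH-JS1_GA against 33196 and 26795 counts in NH-JS1. Its groups were ordered in the same way. The division of unigenes between GAPA1 and GAPA2 is uncertain. TBIU045729, matched to GAPA2, had a CPM ratio of NH-JS2 replicate 2 to replicate 1 of 1.55. That ratio was 1.52 in TBIU045728 of GAPA1 and 1.92 in TBIU039529 of GAPA2. GAPB (AT1G42970), the B subunit, had 779 and 855 CPM in NH-JS2_GA against 813 and 1445 CPM in NH-JS2, with 647 and 798 CPM in NH-JS1_GA against 830.0 and 759.9 CPM in NH-JS1. Its single unigene TBIU005607 had 20861 and 25502 counts in NH-JS2_GA against 22029 and 29129 counts in NH-JS2, with 17700 and 21886 counts in NH-JS1_GA against 27202 and 22572 counts in NH-JS1. GA and untreated libraries of GAPB overlapped in both lines. TIM, the plastid triose phosphate isomerase (AT2G21170), had 227 and 242 CPM in NH-JS2_GA against 282 and 436 CPM in NH-JS2, with 209 and 237 CPM in NH-JS1_GA against 249.7 and 222 CPM in NH-JS1. Its leading unigene TBIU039757 had 3133 and 3704 counts in NH-JS2_GA against 3917 and 4494 counts in NH-JS2, with 2836 and 3279 counts in NH-JS1_GA against 4111 and 3223 counts in NH-JS1. Both NH-JS2 libraries were above the other 6 in CPM.

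Regeneration of the acceptor begins with aldolase, which joins triose phosphates. FBA1 (AT2G21330), a plastid aldolase, had 726 and 772 CPM in NH-JS2_GA against 714 and 1314 CPM in NH-JS2, with 598 and 654 CPM in NH-JS1_GA against 659.8 and 733 CPM in NH-JS1, and its leading unigene TBIU039752 had 11997 and 14064 counts in NH-JS2_GA against 12059 and 16458 counts in NH-JS2, with 10035 and 10930 counts in NH-JS1_GA against 13049 and 13144 counts in NH-JS1. FBA2 (AT4G38970), another plastid aldolase, had 3852 and 4027 CPM in NH-JS2_GA against 4073 and 6187 CPM in NH-JS2, with 3474 and 3592 CPM in NH-JS1_GA against 3791 and 3981 CPM in NH-JS1. Its leading unigene TBIU050188 had 42761 and 50142 counts in NH-JS2_GA against 46322 and 51888 counts in NH-JS2, with 40055 and 41224 counts in NH-JS1_GA against 51351 and 49401 counts in NH-JS1. In both aldolases the NH-JS1_GA libraries were the lowest of the 8.

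CFBP1 (AT3G54050) is the plastid fructose bisphosphatase and SBPASE (AT3G55800) the sedoheptulose bisphosphatase, each an enzyme of an irreversible step. CFBP1 had 501 and 499.96 CPM in NH-JS2_GA against 494 and 855 CPM in NH-JS2, with 439 and 491 CPM in NH-JS1_GA against 584 and 552 CPM in NH-JS1. Its leading unigene TBIU058131 had 8043 and 8820 counts in NH-JS2_GA against 7983 and 10118 counts in NH-JS2, with 7234 and 7989 counts in NH-JS1_GA against 11380 and 9934 counts in NH-JS1. In NH-JS2 plants the GA libraries lay just above NH-JS2 replicate 1 and below NH-JS2 replicate 2. SBPASE had 440.1 and 496 CPM in NH-JS2_GA against 495 and 819 CPM in NH-JS2, with 435 and 520.3 CPM in NH-JS1_GA against 581.6 and 511 CPM in NH-JS1, and its leading unigene TBIU060900 had 9709 and 12137 counts in NH-JS2_GA against 11003 and 13631 counts in NH-JS2, with 9193 and 11066 counts in NH-JS1_GA against 14974 and 11849 counts in NH-JS1. GA and untreated libraries of SBPASE overlapped in both lines. TKL1 (AT3G60750), the plastid transketolase, had 2089.7 and 2453 CPM in NH-JS2_GA against 2553 and 4462 CPM in NH-JS2, with 2311 and 2313 CPM in NH-JS1_GA against 2557 and 2366 CPM in NH-JS1. Its leading unigene TBIU054734 had 15679 and 20722 counts in NH-JS2_GA against 19598 and 26018 counts in NH-JS2, with 17013 and 17313 counts in NH-JS1_GA against 22855 and 19007 counts in NH-JS1. The GA libraries of TKL1 were below the untreated ones in each line, in NH-JS1 plants by a small margin.

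The last steps make ribulose phosphate and turn it into the acceptor. RPE (AT5G61410), the epimerase, had 266 and 323 CPM in NH-JS2_GA against 301 and 386 CPM in NH-JS2, with 267 and 321 CPM in NH-JS1_GA against 374 and 311 CPM in NH-JS1. Its single unigene TBIU063564 had 7129 and 9644 counts in NH-JS2_GA against 8163 and 7790 counts in NH-JS2, with 7298 and 8792 counts in NH-JS1_GA against 12254 and 9224 counts in NH-JS1. The groups of RPE overlapped in both lines. RPI (AT3G04790), the ribose phosphate isomerase, had 68.6 and 73.3 CPM in NH-JS2_GA against 85.5 and 178 CPM in NH-JS2, with 37.3 and 38.2 CPM in NH-JS1_GA against 53.4 and 51.8 CPM in NH-JS1, and its leading unigene TBIU064950 had 900 and 1085 counts in NH-JS2_GA against 1160 and 1784 counts in NH-JS2, with 639 and 659 counts in NH-JS1_GA against 1117 and 975 counts in NH-JS1. All 4 libraries of NH-JS2 plants were above all 4 of NH-JS1 plants, and within each line the GA libraries were below the untreated ones. PRK (AT1G32060), the phosphoribulokinase, had 1669 and 1806 CPM in NH-JS2_GA against 1727 and 2764 CPM in NH-JS2, with 1251 and 1501 CPM in NH-JS1_GA against 1662 and 1501 CPM in NH-JS1. Its leading unigene TBIU049744 had 15031 and 18153 counts in NH-JS2_GA against 15991 and 18575 counts in NH-JS2, with 11856 and 14211 counts in NH-JS1_GA against 18827 and 15290 counts in NH-JS1. For PRK too all 4 libraries of NH-JS2 plants were above all 4 of NH-JS1 plants, though the nearest of them almost met.

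The CP12 regulators were ordered differently from most enzymes. CP12-2 (AT3G62410) had 130.3 and 141 CPM in NH-JS2_GA against 172 and 178 CPM in NH-JS2, with 77.5 and 70.5 CPM in NH-JS1_GA against 105 and 96.8 CPM in NH-JS1. Its single unigene TBIU024993 had 3489 and 4198 counts in NH-JS2_GA against 4652 and 3590 counts in NH-JS2, with 2121 and 1934 counts in NH-JS1_GA against 3454 and 2875 counts in NH-JS1. The 4 groups did not overlap in CPM, with NH-JS2 at the top, then NH-JS2_GA, NH-JS1 and NH-JS1_GA. CP12-1 (AT2G47400) had 601 and 531 CPM in NH-JS2_GA against 709 and 755 CPM in NH-JS2, with 414 and 443 CPM in NH-JS1_GA against 549 and 588 CPM in NH-JS1, and its leading unigene TBIU014092 had 8205 and 8175 counts in NH-JS2_GA against 10011 and 7717 counts in NH-JS2, with 6220 and 6615 counts in NH-JS1_GA against 9543 and 9510 counts in NH-JS1. NH-JS2 was again at the top and NH-JS1_GA at the bottom, while NH-JS2_GA and NH-JS1 overlapped. All 4 libraries of NH-JS2 plants exceeded all 4 of NH-JS1 plants in 3 of 18 loci (CP12-2, RPI and PRK), against 17.5% of all loci, and both NH-JS1_GA libraries were the lowest of the 8 in 9 of 18, against 9.45%.

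For NH-JS2_GA vs. NH-JS2, 0 of 18 loci passed an adjusted p of 0.05 in edgeR's quasi-likelihood test (Benjamini-Hochberg over 16483 loci), where 0.091% of all loci passed. All 18 log2 fold changes were below 0, as were 50.7% over all loci, with a median of -0.47 and a range of -0.89 (RPI) to -0.22 (RPE). At an unadjusted p under 0.05, 8 loci were lower, against 6.07% of all loci, and DESeq2 called 1, RPI (adjusted p = 0.0422). In 9 loci both NH-JS2_GA libraries were below both NH-JS2 libraries, against 19.3% of all loci. Among unigenes edgeR called 0 of 72 (0.0637% of all), 28 had lower values with an unadjusted p under 0.05 (5.03% of all), and 1 was called by DESeq2, TBIU064950 of RPI (adjusted p = 0.0320). Unigenes of 1 locus often had parallel counts, so the 72 unigenes on 18 loci are not separate genes. Shares of all loci or unigenes called are those of edgeR throughout. None is given for DESeq2, so its counts of members have no background to be read against. The p-values measure the spread between pools of plants, estimated over all 4 groups. In a fit that left out 1 library, the group left with 1 library added nothing to that estimate.

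By role, the small subunit genes RBCS1B (-0.59, SE 0.24, adjusted p = 0.462) and RBCS3B (-0.58, SE 0.24, adjusted p = 0.476) gave similar log2 fold changes for NH-JS2_GA vs. NH-JS2. Activase had a smaller one (RCA, -0.47, SE 0.26, adjusted p = 0.554). The most negative values were those of RPI (-0.89, SE 0.27, adjusted p = 0.394), TKL1 (-0.63, SE 0.23, adjusted p = 0.445) and TIM (-0.61, SE 0.19, adjusted p = 0.395). RPE had the least negative one (-0.22, SE 0.17, adjusted p = 0.672). The regulators had small standard errors, with CP12-2 (-0.37, SE 0.10, adjusted p = 0.379) and CP12-1 (-0.37, SE 0.11, adjusted p = 0.394) at nearly the same value.

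These values turned on the NH-JS2 library left in the fit. With 1 library, NH-JS2 had no spread of its own, so calls in these fits rest on that 1 library. Without NH-JS2 replicate 2 the median was -0.06, 12 of 18 loci were below 0 and 0 were called, with CP12-2 (-0.34, adjusted p = 0.307) and CP12-1 (-0.32, adjusted p = 0.351) nearly where they were, RPI at -0.27, adjusted p = 0.375, TIM at -0.26, adjusted p = 0.442, RBCS1B at -0.16, adjusted p = 0.739 and RCA at 0.04, adjusted p = 0.948. Without NH-JS2 replicate 1, 13 loci and 29 unigenes were called lower, where 2.21% of all loci and 0.46% of all unigenes were called in either direction, and the median over the 18 loci was -0.82.

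For NH-JS1_GA vs. NH-JS1, edgeR called 0 of 18 loci (0.0121% of all loci) and 0 of 72 unigenes (0.0819% of all unigenes). All 18 log2 fold changes were again below 0, as were 49.9% over all loci, with a median of -0.21. At an unadjusted p under 0.05, 2 loci (5.2% of all) and 3 unigenes (4.75% of all) were lower, and DESeq2 called 0 of each. In 12 loci both NH-JS1_GA libraries were below both NH-JS1 libraries, against 22.9% of all loci. The loci at an unadjusted p under 0.05 were CP12-2 (-0.45, SE 0.10, adjusted p = 0.339) and CP12-1 (-0.41, SE 0.11, adjusted p = 0.463). RPI had the most negative value with a wider error (-0.48, SE 0.27, adjusted p = 0.693). RBCS1B (-0.32, SE 0.24, adjusted p = 0.760) and RBCS3B (-0.32, SE 0.24, adjusted p = 0.763) followed. RCA (-0.11, SE 0.26, adjusted p = 0.936) and TIM (-0.08, SE 0.19, adjusted p = 0.939) lay within 1 SE of 0. Without NH-JS1_GA replicate 1, 15 of 18 loci were below 0, with a median of -0.10. Without NH-JS1 replicate 1, 16 were below 0, with a median of -0.16. In the other fits that left out 1 library all 18 stayed below 0. The most negative median was -0.35, without NH-JS1_GA replicate 2.

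**Figure D3:**
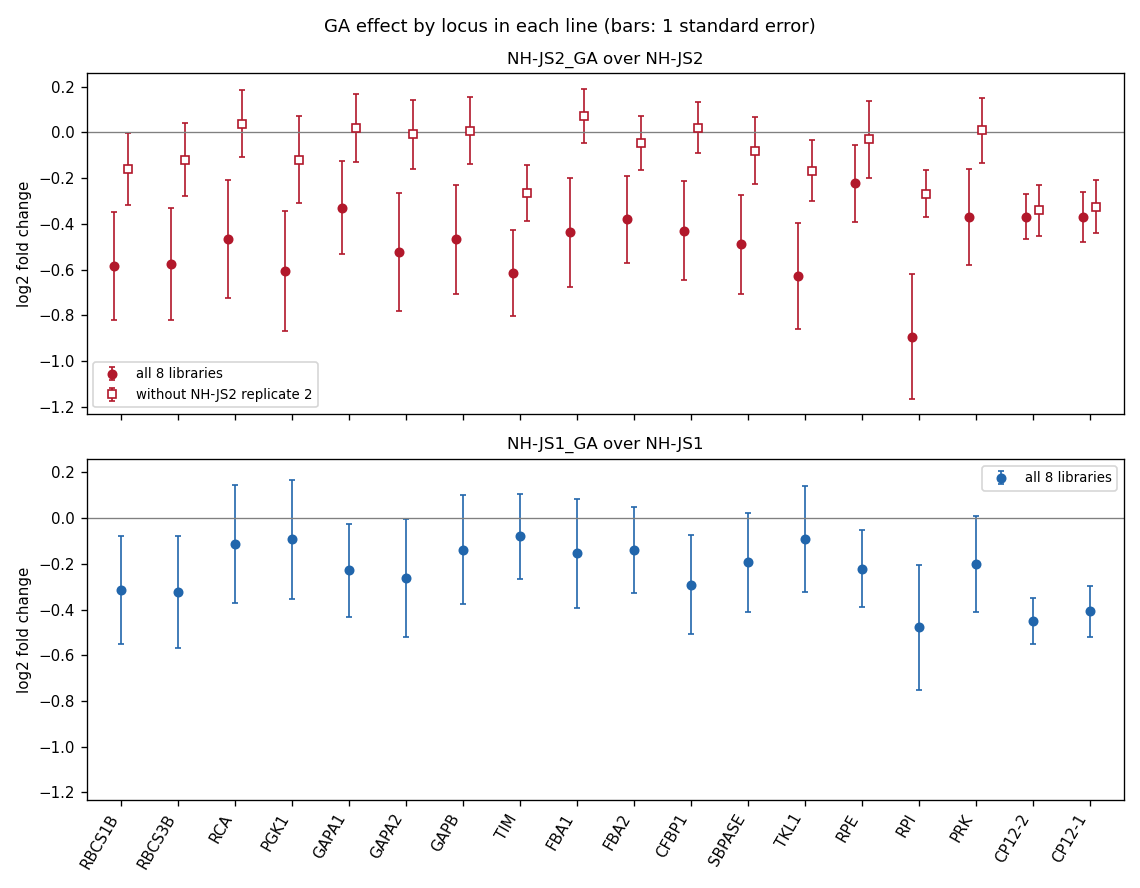
Log2 fold change of the 18 loci with GA in each line (NH-JS2_GA vs. NH-JS2 and NH-JS1_GA vs. NH-JS1), with bars of 1 standard error; open squares leave out NH-JS2 replicate 2. All 18 filled points lie below 0 in both panels, with medians of -0.47 in NH-JS2 and -0.21 in NH-JS1, and none passes an adjusted p of 0.05.

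Averaged over the lines, the GA effect was below 0 in 18 of 18 loci, against 50.1% of all loci, with a median of -0.35. edgeR called 0 loci (0.164% of all) and 0 unigenes (0.152% of all), while 7 loci (8.52% of all) and 25 unigenes (7.2% of all) had lower values with an unadjusted p under 0.05. The smallest adjusted p was that of CP12-2 (-0.41, SE 0.07, adjusted p = 0.0859), then CP12-1 (-0.39, SE 0.08, adjusted p = 0.112). RPI had the most negative value (-0.69, SE 0.19, adjusted p = 0.203). DESeq2 called these 3 loci lower (adjusted p = 0.000652 for CP12-2, 0.00102 for CP12-1 and 0.00831 for RPI) and 7 unigenes. It was fitted to all libraries only. In edgeR the median over the 18 loci was -0.13 without NH-JS2 replicate 2 and -0.49 without NH-JS2 replicate 1. Over the fits that left out 1 library, RPI ran from -0.90 to -0.37, CP12-2 from -0.44 to -0.37 and CP12-1 from -0.44 to -0.34. Without NH-JS2 replicate 1 edgeR called 15 loci and 35 unigenes lower, where 3.24% of all loci and 0.773% of all unigenes were called in either direction, and without NH-JS2 replicate 2 it called 0 of each (0.343% and 0.248% of all).

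Whether GA acted differently in NH-JS2 than in NH-JS1 was tested as an interaction. edgeR called 0 of 18 loci (0.0243% of all) and 0 of 72 unigenes (0.0592% of all), as did DESeq2, and at an unadjusted p under 0.05 there were 0 loci (2.12% of all higher and 2.02% lower) and 1 unigene, lower (2.06% of all), TBIU062323 of TKL1 (-0.77, SE 0.33, adjusted p = 1.00). CP12-2 (0.08, SE 0.14, adjusted p = 1.00) and CP12-1 (0.04, SE 0.16, adjusted p = 1.00) were the 2 of 18 loci with a value above 0, both within 1 SE of it. The median over the 18 loci was -0.27, and it was 0.15 without NH-JS2 replicate 2. Errors were wide for the Rubisco genes, as in RCA (-0.35, SE 0.37, adjusted p = 1.00). Differences larger than 1 SE could go undetected too: TIM (-0.53, SE 0.26) had an unadjusted p of 0.0751 in edgeR.

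For NH-JS2 vs. NH-JS1, edgeR called 4 of 18 loci higher and 0 lower, where 12.1% of all loci were called higher and 11.4% lower. They were CP12-2 (0.79, SE 0.10, adjusted p = 0.000803), RPI (1.32, SE 0.27, adjusted p = 0.00934), CP12-1 (0.36, SE 0.11, adjusted p = 0.0441) and TIM (0.60, SE 0.19, adjusted p = 0.0476). All 18 log2 fold changes were above 0, against 50.7% of all loci, with a median of 0.51. In 7 loci both NH-JS2 libraries were above both NH-JS1 libraries, against 31.1% of all loci. The genes of carboxylation did not pass in edgeR, with RBCS1B at 0.57, SE 0.24, adjusted p = 0.1201 and RCA at 0.51, SE 0.26, adjusted p = 0.197. DESeq2 called 7 loci higher, these 4 and RBCS1B (adjusted p = 0.0278), PRK (adjusted p = 0.0390) and RBCS3B (adjusted p = 0.0463). The share of all loci that DESeq2 called higher is not given, so whether it called more loci in general was not tested. Of the 18 loci, RPE was nearest to 0 (0.01, SE 0.17, adjusted p = 0.983).

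Without NH-JS2 replicate 2, only CP12-2 (0.76, adjusted p = 0.00227) and RPI (0.69, adjusted p = 0.00234) of the 18 loci were called for NH-JS2 vs. NH-JS1, where 21.1% of all loci were called in either direction, 11 loci were above 0, and the median was 0.04. CP12-1 (0.31, adjusted p = 0.101) and TIM (0.25, adjusted p = 0.192) no longer passed, and RBCS1B (0.13, adjusted p = 0.603) and RCA (-0.01, adjusted p = 0.985) were near 0. Without NH-JS2 replicate 1, 15 loci and 55 unigenes were higher, where 26.6% of all loci and 28.7% of all unigenes were called in either direction. Over the 8 fits that each left out 1 library, the adjusted p ran from 0.00142 to 0.0164 for CP12-2, from 2.42e-05 to 0.0710 for RPI (not passing without NH-JS1 replicate 1 or without NH-JS1 replicate 2), from 0.0344 to 0.242 for CP12-1 and from 0.00137 to 0.240 for TIM. CP12-1 and TIM passed in 1 of these 8 fits, the one without NH-JS2 replicate 1.

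For NH-JS2_GA vs. NH-JS1_GA, which uses other libraries, edgeR called 3 of 18 loci higher and 0 lower, where 10.8% of all loci were called higher and 10.3% lower. They were CP12-2 (0.87, SE 0.10, adjusted p = 0.000531), CP12-1 (0.40, SE 0.11, adjusted p = 0.0334) and RPI (0.91, SE 0.27, adjusted p = 0.0471). The median was 0.15, and 14 loci were above 0, against 50% of all loci. RBCS1B (0.29, SE 0.24, adjusted p = 0.430) and RCA (0.15, SE 0.26, adjusted p = 0.729) did not pass. In 9 loci both NH-JS2_GA libraries were above both NH-JS1_GA libraries, against 32.1% of all loci, and in 1, PGK1, they were below, against 31.1%. PGK1 did not pass (-0.50, SE 0.26, adjusted p = 0.218), but it did when either NH-JS2 library, which this comparison uses only for the spread, was left out (-0.51, adjusted p = 0.0435 without replicate 2). Over the 8 fits that left out 1 library, the adjusted p ran from 0.000335 to 0.00799 for CP12-2, from 0.0172 to 0.204 for CP12-1 and from 0.000182 to 0.178 for RPI. CP12-1 and RPI passed without either NH-JS2 library and lost the call when any 1 of the other 6 libraries was left out. The root marker COW1 also differed between the lines, as given above, and its part in these results was not tested.

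**Figure D4:**
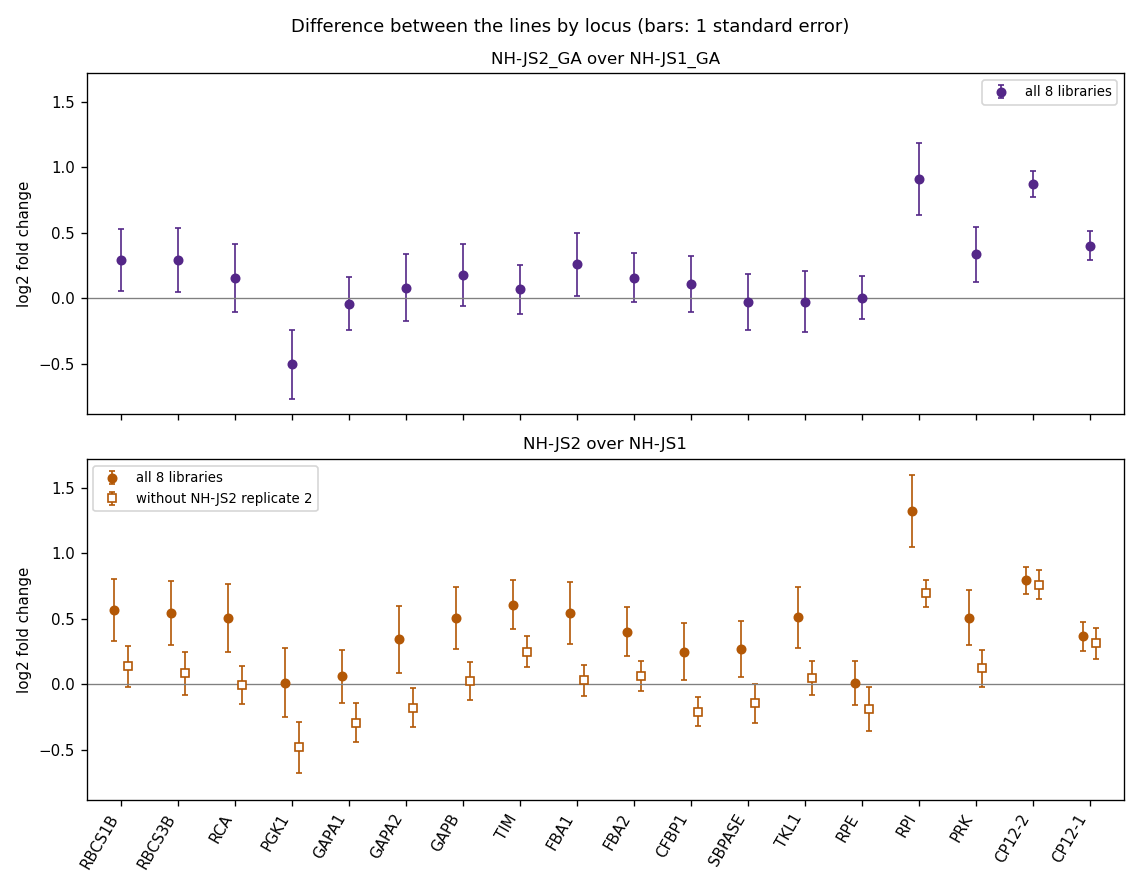
Log2 fold change of the 18 loci between the lines (NH-JS2_GA vs. NH-JS1_GA and NH-JS2 vs. NH-JS1), with bars of 1 standard error; open squares leave out NH-JS2 replicate 2. CP12-2 (0.87 with GA and 0.79 without), RPI (0.91 and 1.32) and CP12-1 (0.40 and 0.36) are called in both comparisons and TIM (0.60) only without GA.

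At the level of single unigenes, 9 of 72 were higher and 0 lower for NH-JS2 vs. NH-JS1, where 15.4% of all unigenes were called higher and 14.8% lower. Both RPI unigenes were called, TBIU053228 (1.81, SE 0.28, adjusted p = 0.00117) and TBIU064950 (1.00, SE 0.27, adjusted p = 0.0208). TBIU053228 had 937 and 1103 counts in NH-JS2_GA against 1156 and 1813 counts in NH-JS2, with 382 and 390 counts in NH-JS1_GA against 634 and 565 counts in NH-JS1. The CP12 unigenes called were TBIU024993 of CP12-2 (0.82, SE 0.12, adjusted p = 0.000718) and TBIU056587 of CP12-1 (0.46, SE 0.13, adjusted p = 0.0223). TBIU056587 had 7894 and 7666 counts in NH-JS2_GA against 9203 and 7491 counts in NH-JS2, with 5117 and 5541 counts in NH-JS1_GA against 8463 and 7966 counts in NH-JS1. Both TIM unigenes were called, TBIU039757 (0.68, SE 0.19, adjusted p = 0.0276) and TBIU039504 (0.58, SE 0.19, adjusted p = 0.0459). TBIU039504 had 2935 and 3519 counts in NH-JS2_GA against 3713 and 4296 counts in NH-JS2, with 2889 and 3229 counts in NH-JS1_GA against 4074 and 3373 counts in NH-JS1. The other 3 belonged to loci that were not called as a whole. TBIU062343 of TKL1 (1.09, SE 0.24, adjusted p = 0.00797) had 367 and 447 counts in NH-JS2_GA against 417 and 573 counts in NH-JS2, with 216 and 235 counts in NH-JS1_GA against 358 and 295 counts in NH-JS1. TBIU062323 of TKL1 (0.83, SE 0.24, adjusted p = 0.0266) had 3142 and 4120 counts in NH-JS2_GA against 4064 and 5496 counts in NH-JS2, with 3314 and 3407 counts in NH-JS1_GA against 4044 and 3512 counts in NH-JS1. TBIU015856 of RCA (0.71, SE 0.23, adjusted p = 0.0444) had 29366 and 33548 counts in NH-JS2_GA against 31389 and 40083 counts in NH-JS2, with 22600 and 26933 counts in NH-JS1_GA against 31814 and 29259 counts in NH-JS1. Without NH-JS2 replicate 2, 5 unigenes were higher and 2 lower, where 26.6% of all unigenes were called in either direction. The number higher was 3 without NH-JS1 replicate 1 (19.8% of all called) and 2 without NH-JS1 replicate 2 (19.7% of all called).

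For NH-JS2_GA vs. NH-JS1_GA, 4 unigenes were higher and 1 lower, where 14.4% of all unigenes were called higher and 14.3% lower. The higher ones were TBIU024993 of CP12-2 (0.88, SE 0.12, adjusted p = 0.000487), TBIU053228 of RPI (1.36, SE 0.28, adjusted p = 0.00622), TBIU056587 of CP12-1 (0.51, SE 0.13, adjusted p = 0.0153) and TBIU062343 of TKL1 (0.81, SE 0.24, adjusted p = 0.0363). The lower one was TBIU056833, a copy of PGK1 (-1.28, SE 0.25, adjusted p = 0.00490). It had 4752 and 6215 counts in NH-JS2_GA against 5851 and 7552 counts in NH-JS2, with 11256 and 14404 counts in NH-JS1_GA against 18109 and 13471 counts in NH-JS1. In CPM all 4 libraries of NH-JS2 plants were below all 4 of NH-JS1 plants for this unigene, the only such member of 72, against 19.6% of all unigenes. For NH-JS2_GA vs. NH-JS1_GA without NH-JS2 replicate 2, 8 unigenes were higher and 2 lower, and without NH-JS2 replicate 1 the counts were 7 and 2, where 32.1% of all unigenes were called in either direction in each fit. For NH-JS2 vs. NH-JS1 TBIU056833 did not pass (-0.74, SE 0.25, adjusted p = 0.0527), but it did without NH-JS2 replicate 2 (-1.20, adjusted p = 0.00267).

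The division of a locus between its copies differed between the lines in several loci, which is given here as a description. TBIU056833 took 17.3% and 17.8% in NH-JS2_GA against 18.1% and 17.4% in NH-JS2, with 30.3% and 29.98% in NH-JS1_GA against 29.8% and 30.9% in NH-JS1 of PGK1 counts. TBIU049881, the leading copy, took 52.1% and 50.7% in NH-JS2_GA against 51.0% and 51.3% in NH-JS2, with 42.8% and 43.0% in NH-JS1_GA against 43.9% and 43.0% in NH-JS1. The share of TBIU056833 was thus larger in NH-JS1 plants and that of TBIU049881 smaller. The level of TBIU049881 overlapped between the lines, at 508 to 1056 CPM in NH-JS2 plants and 552 to 770 CPM in NH-JS1 plants. TBIU053228 took 51.0% and 50.4% in NH-JS2_GA against 49.9% and 50.4% in NH-JS2, with 37.4% and 37.2% in NH-JS1_GA against 36.2% and 36.7% in NH-JS1 of RPI counts. Both RPI copies had about equal counts in NH-JS2 plants, and TBIU064950 prevailed in NH-JS1 plants. TBIU062343 took 0.656% and 0.611% in NH-JS2_GA against 0.603% and 0.637% in NH-JS2, with 0.342% and 0.370% in NH-JS1_GA against 0.427% and 0.420% in NH-JS1 of TKL1 counts. Within NH-JS1 plants both GA libraries lay below both untreated ones in this share. TBIU048278 took 9.76% and 9.87% in NH-JS2_GA against 9.79% and 10.05% in NH-JS2, with 13.6% and 13.5% in NH-JS1_GA against 13.3% and 13.4% in NH-JS1 of SBPASE counts. NH-JS2 replicate 2 did not stand apart from the other libraries of NH-JS2 plants in these shares, although it did in the levels. The 95% Wilson interval of a copy share reached at most 2.96 points on either side. Reads of both lines were mapped to 1 set of unigenes. A sequence difference between a line and that set and a difference in expression cannot be told apart in these shares. The same holds for differences in level between the lines.

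**Figure D5:**
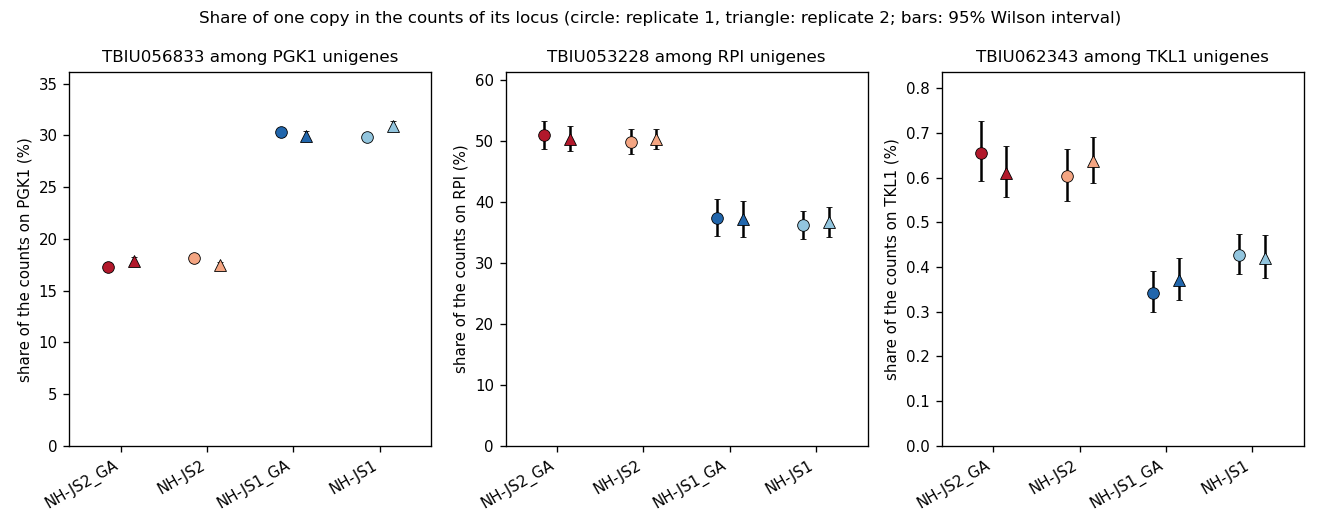
Share (%) of the counts of a locus that fell on TBIU056833 of PGK1, TBIU053228 of RPI and TBIU062343 of TKL1 in the 4 groups, with circles for replicate 1, triangles for replicate 2 and bars for 95% Wilson intervals. For TBIU056833 of PGK1 the shares are 17.3% to 18.1% in NH-JS2 plants and 29.8% to 30.9% in NH-JS1 plants.

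CFBP1 had 10 unigenes, of which TBIU058131 and TBIU009193 carried most counts. A further 7, TBIU063425 to TBIU063431, had 57.75% to 63.16% amino acid identity with their best match in the annotation database, and 3.23 to 6.30 CPM. They did not share the high level in NH-JS2 replicate 2: its ratio to replicate 1 was 0.987 to 1.11 in them, against 1.69 in TBIU058131 and 1.90 in TBIU009193. Whether they belong to the same enzyme was not tested. The last, TBIU077817, had 5 to 15 counts, with 5 the lowest value of any member, and 126365 counts in TBIU056051 was the highest. All 72 unigenes passed the filter on low counts.

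Genes beside the cycle were counted from lists of Arabidopsis loci, read against the same backgrounds of 12.1% higher and 11.4% lower (NH-JS2 vs. NH-JS1) and 10.8% higher and 10.3% lower (NH-JS2_GA vs. NH-JS1_GA). Without NH-JS2 replicate 2, calls in either direction made up 21.1% of all loci for NH-JS2 vs. NH-JS1 and 27% for NH-JS2_GA vs. NH-JS1_GA. Of 11 loci for the assembly and folding of Rubisco, 6 were higher without GA (NH-JS2 vs. NH-JS1) and 3 with GA (NH-JS2_GA vs. NH-JS1_GA), with 0 lower, and without NH-JS2 replicate 2 the counts were 3 and 5. CPN60B3, a chaperonin subunit, had 256 and 237 CPM in NH-JS2_GA against 287 and 266 CPM in NH-JS2, with 41.9 and 47.6 CPM in NH-JS1_GA against 34.6 and 40.0 CPM in NH-JS1. NH-JS2 plants were thus far above NH-JS1 plants in every library, with log2 fold changes of 2.46 (SE 0.12) with GA and 2.89 (SE 0.12) without. Whether mapping both lines to 1 set of unigenes had a part in this difference was not tested. CPN60B1, another chaperonin subunit, was higher for NH-JS2 vs. NH-JS1 (1.08, SE 0.30, adjusted p = 0.0316) but lost the call without NH-JS2 replicate 2 (adjusted p = 0.0825), and for NH-JS2_GA vs. NH-JS1_GA it did not pass (0.33, SE 0.30, adjusted p = 0.475). Of 9 loci of the chloroplast thioredoxin system, which activates several enzymes of the cycle in the light, 5 were higher in NH-JS2 and 6 in NH-JS2_GA, with 0 lower, and without NH-JS2 replicate 2 the counts were 3 and 7. TRXM2 passed in both (0.34, SE 0.09, adjusted p = 0.0344 with GA and 0.37, SE 0.09, adjusted p = 0.0216 without).

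Of 14 photorespiration loci, 4 were higher in NH-JS2 and 2 in NH-JS2_GA, with 0 lower, and without NH-JS2 replicate 2 there were 0 higher and 1 lower in NH-JS2 and 5 higher in NH-JS2_GA. The glycolate oxidase gene GOX2 was 1 of the 4 (0.67, SE 0.17, adjusted p = 0.0220) and lost the call without that library (adjusted p = 0.0630). Of 14 starch and sucrose synthesis loci, 0 were higher and 3 lower in NH-JS2, and 2 were lower in NH-JS2_GA. With that library left out, 2 were lower in NH-JS2, and 1 was higher and 2 lower in NH-JS2_GA. GBSS1, the granule-bound starch synthase, was lower in both (-1.01, SE 0.14, adjusted p = 0.00154 with GA and -0.75, SE 0.14, adjusted p = 0.00613 without). Of 13 other plastid or cytosolic forms of Calvin cycle enzymes, 1 was higher (PGK3) and 1 lower (CP12-3) in NH-JS2, and 1 was lower in NH-JS2_GA. PGK3 lost the call without NH-JS2 replicate 2 (adjusted p = 0.0889), which left 0 higher and 1 lower in NH-JS2, with 2 higher and 1 lower in NH-JS2_GA. CP12-3, a further CP12 gene, ran against CP12-1 and CP12-2 (-1.57, SE 0.30, adjusted p = 0.00624 with GA and -1.71, SE 0.30, adjusted p = 0.00418 without). Of 12 antenna loci, 2 were higher in NH-JS2 and 2 in NH-JS2_GA, and without NH-JS2 replicate 2 the counts were 1 and 2. Of 6 senescence and sugar starvation loci tested, 2 were higher in NH-JS2 and 1 in NH-JS2_GA, with 0 lower. The counts were the same without NH-JS2 replicate 2. At an unadjusted p under 0.05, 3 were higher and 1 lower for NH-JS2 vs. NH-JS1. For NH-JS2_GA vs. NH-JS1_GA, 2 were higher and 1 lower. The median log2 fold change was 0.43 without GA and -0.03 with GA. The list summed to 250 to 275 CPM in NH-JS2 plants and 154 to 237 CPM in NH-JS1 plants, a difference that its loci did not all share. With GA within a line, edgeR called 0 loci of these lists, while DESeq2 called 3 Rubisco assembly loci lower in NH-JS2_GA. At an unadjusted p under 0.05, 6.07% of all loci were lower in NH-JS2_GA and 5.2% in NH-JS1_GA. The lower values were those of 8 Rubisco assembly loci, 3 thioredoxin loci and 1 of the other Calvin cycle forms in NH-JS2_GA. In NH-JS1_GA they were those of 6 thioredoxin loci. The Rubisco assembly median for NH-JS2_GA vs. NH-JS2 was -0.71, but -0.25 without NH-JS2 replicate 2. The thioredoxin median was -0.18, and -0.17 without that library. DESeq2 was not fitted without it.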

How the data were processed

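RNA sequencing of 8 radish libraries was used, 2 per group in 4 groups taken from the labels. The counts deposited by the authors are raw read counts per unigene, with 1 as the lowest value. The authors trimmed reads with SolexaQA and placed them on radish unigenes using Bowtie2 2.1.0 with few mismatches allowed (TopHat is listed too, in the processing notes of the submitters). The authors also deposited the percent amino acid identity of each unigene with its best match in the annotation database. The 8 columns of normalized values per library and the columns of the authors' own log2 fold changes between groups were not used. No coordinates or sequences were used.

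Counts were tested as deposited with edgeR 4.0.16 (limma 3.58.1, R 4.3.3): quasi-likelihood fit over all 8 libraries, 1 mean per group, TMM scaling, filterByExpr, and Benjamini-Hochberg adjustment over all features tested, with an adjusted p under 0.05 as a call. Fits were made for 65934 unigenes and for 16483 loci, whose counts were summed over unigenes with the same Arabidopsis match. Locus CPM is relative to counts of unigenes with such a match. The standard error is the log2 fold change divided by the root of the F statistic. There were 6 comparisons. The procedure was tested on simulated data.

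Values in every library are given for each locus, for its most abundant unigene, and for each unigene past the threshold in any comparison (at most 3 per locus). From other lists at most 3 loci per list and comparison are named, among those past the threshold with the highest mean counts. Members and lists were chosen with earlier results of these data known. Intervals cover counting error only. Alternatives were DESeq2 1.42.0, RLE scaling, no filter, 1 subtracted from every count, the compared groups alone, the criteria of the study, a replicate block, and leaving out each library. Scaling by totals without TMM and a crossed block were added after seeing the data.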

Additional observations from a re-analysis of the deposited data

Results flagged for a closer look

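TBIU063428, a weak match to CFBP1, had its GA libraries above the untreated ones in NH-JS2 plants and below them in NH-JS1 plants. It had 4.83 and 5.05 CPM in NH-JS2_GA against 4.81 and 4.75 CPM in NH-JS2, and 4.58 and 5.09 CPM in NH-JS1_GA against 5.75 and 5.35 CPM in NH-JS1. The nearest libraries of NH-JS2 plants almost met, at 4.83 and 4.81 CPM. Both NH-JS2_GA libraries were above both NH-JS2 libraries in 1 of 72 members, this one, and in 18.4% of all unigenes. Both NH-JS1_GA libraries were below both NH-JS1 libraries in 43 of 72 members and in 22.1% of all unigenes. The log2 effect of GA in NH-JS2 minus that in NH-JS1 was 0.25 (SE 0.18, adjusted p = 1.00 in edgeR's quasi-likelihood test), which did not pass the threshold.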

How the results depend on the processing

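Leaving out 1 library moved the counts of calls most. Each such fit left 1 group with 1 library, and the spread within that group was not measured. The number of loci called ran from 0 to 13 for NH-JS2_GA vs. NH-JS2, from 1 to 15 for NH-JS2 vs. NH-JS1, from 1 to 4 for NH-JS2_GA vs. NH-JS1_GA and from 0 to 15 for the GA effect averaged over the lines. The number of unigenes ran from 0 to 29, from 2 to 55, from 3 to 10 and from 0 to 35 in the same comparisons, and the highest counts for all but NH-JS2_GA vs. NH-JS1_GA came without NH-JS2 replicate 1. In NH-JS1_GA vs. NH-JS1 and in the interaction of GA and line both stayed at 0. Without NH-JS2 replicate 2, 6 of 18 loci turned above 0 for NH-JS2_GA vs. NH-JS2 and 7 turned below 0 for NH-JS2 vs. NH-JS1. Without NH-JS1 replicate 2, 3 turned below 0 in the second of these. For NH-JS1_GA vs. NH-JS1, 3 loci turned above 0 without NH-JS1_GA replicate 1 and 2 without NH-JS1 replicate 1. Of the fold changes tracked over all alternatives, the sign turned for RCA without NH-JS2 replicate 2 (0.038 for NH-JS2_GA vs. NH-JS2 and -0.0051 for NH-JS2 vs. NH-JS1, at the ends of ranges reaching -0.84 and 0.88) and for TIM in NH-JS1_GA vs. NH-JS1 (-0.17 to 0.01, with 0.0048 without NH-JS1_GA replicate 1 and 0.0073 without NH-JS1 replicate 1). With DESeq2 the counts were 1 locus and 1 unigene for NH-JS2_GA vs. NH-JS2, 7 and 25 for NH-JS2 vs. NH-JS1, and 3 and 7 for the averaged GA effect. For NH-JS2 vs. NH-JS1, 2 loci were called with no filter, with totals in place of TMM, with the compared groups alone (3 unigenes) and with the criteria of the study (3 unigenes). For NH-JS2_GA vs. NH-JS1_GA those criteria left 1 locus and 3 unigenes. For DESeq2 and the settings named after it no share of all loci or unigenes called is given. Whether these counts moved with the background was therefore not tested. With library totals times TMM factors as the denominator the mean NH-JS1 share on members was 3.92%. On this denominator the share of NH-JS2 replicate 2 was larger than 6.12%, since its TMM factor was 0.886. The cause of these shifts was not tested.

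Correlations of same-numbered deviations were -0.11 to 0.18 over unigenes above 1 CPM, the highest being that of NH-JS2_GA and NH-JS2. With 2 libraries per group they cannot decide whether replicate numbers paired the samples. With the replicate number as a block, 3 loci and 9 unigenes were called for NH-JS2 vs. NH-JS1, and the counts were unchanged in the other comparisons. Crossing the NH-JS1 numbers gave 6 loci and 16 unigenes. The block fits too are given without the share of all loci or unigenes called, so a change in members alone was not tested.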
